A study of Mus musculus with 8 samples.

Results

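*Myc* and 41 genes of ribosome production were followed in RNA sequencing of mouse spleen natural killer (NK) cells. The 42 genes were taken by name from a list that was chosen with earlier results of these data known. They cover RNA polymerase I, nucleolar scaffold proteins, the small nucleolar RNA-protein particles and the assembly factors of both ribosomal subunits. All 42 are protein-coding genes, each matched 1 of the 54838 gene identifiers in the count files, and all were among the 13903 genes with enough reads to be tested. The series compared 4 libraries from healthy WT FVB/n mice (hNK) with 4 from mice of the MMTV-PyMT model (teNK), tumour-bearing according to the series design. In this model the mouse mammary tumour virus promoter, active mainly in mammary epithelium, drives the polyoma virus middle T oncogene. Cells of both groups were sorted from spleen as CD45+/CD49b+/CD3- and then held for 12 to 16 h in medium with cytokines before RNA extraction, so the values describe cultured cells. Ages, the strain on which the transgene was kept, the cytokines and the number of animals behind each library are not given in the sources used here. Since the labels do not state that each library came from its own animals, a p-value measures the spread among these 8 libraries, and that spread may be technical.

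Ribosome production starts in the nucleolus, where RNA polymerase I transcribes the ribosomal RNA precursor. Small nucleolar RNA-protein particles (snoRNPs) then guide its methylation and pseudouridylation, and a series of assembly factors folds, cuts and exports the small and the large subunit. MYC, a transcription factor that pairs with MAX and binds the E-box CACGTG, raises the transcription of many of these genes in growing lymphocytes. In NK cells, cytokines such as IL-2 and IL-15 are known to induce MYC along with cell growth.

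The libraries held 5202131 to 12419324 reads on genes in hNK and 13111043 to 16209895 in teNK, and counting error was therefore larger in hNK. The smallest count of any of the 42 genes in a library was 46 reads, well above the floor of 3 counts. NK cell markers were abundant in every library (13 genes summing to 5647 to 6574 CPM in hNK and 10648 to 11308 CPM in teNK, where CPM is the read count scaled to a common library size with edgeR's TMM factors). Of these 13 genes, 12 rose in teNK and *Eomes* fell. Some markers of other cells moved with the group. Of 15 platelet and megakaryocyte markers, 14 were tested and 13 rose in teNK (101 to 138 CPM summed over all 15 in hNK, 259 to 419 in teNK), and of 13 B cell markers 12 were tested and 11 rose (88.5 to 131 CPM in hNK, 146 to 182 in teNK). Most of the hNK sums came from *Itgb3* in the platelet list (78.4 to 107 CPM in hNK, 68.3 to 88.8 in teNK) and *Ighm* in the B cell list (80.3 to 120 and 87.7 to 104 CPM). *Cd79a* was at most 0.99 CPM in hNK and between 1.51 and 3.43 CPM in teNK. The T cell list stood at 351 to 389 and 332 to 357 CPM, of which *Trbc1* made up more than any other gene, and *Cd8a* had no read in hNK and reads in only 1 teNK library. Of 8 dendritic cell markers 3 were tested and 1 rose: the list summed to 17.0 to 23.4 CPM in hNK and 72.4 to 94.5 CPM in teNK, of which *Itgax* made up 5.74 to 10.4 and 59.9 to 80.8 CPM, and *Xcr1* and *Clec9a* were at 0 in every hNK library. Erythroid markers summed to at most 0.542 and 10.9 CPM, neutrophil markers to at most 0.165 and 7.04 CPM, and basophil and mast cell markers to at most 1.26 and 4.13 CPM. Of 12 monocyte and macrophage markers 3 were tested, and 1 fell and 1 rose. The list summed to 543 to 745 CPM in hNK and 371 to 429 CPM in teNK, nearly all of it *Ccr2* (537 to 740.2 CPM in hNK and 360.2 to 415 CPM in teNK), which fell, while *Lyz2* rose from at most 0.915 CPM to between 4.97 and 9.41 CPM. *C1qa*, *C1qb* and *C1qc* were at 0 in every hNK library. The part of other cell types in the results was not tested. In such bulk samples, fewer cells of a type and less RNA per cell cannot be told apart.

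Ribosome biogenesis genes were lower in NK cells of tumour-bearing mice. Of the 42 genes, 36 fell in teNK, none rose and 6 did not pass (edgeR quasi-likelihood test, adjusted p under 0.05 over all genes tested), where 25.6% of all 13903 genes were called lower and 26.4% higher. The median change of the 42 genes was -0.55 on the log2 scale, a 1.47-fold lower level, beside -0.02 for all genes tested. The falls were moderate: 20 of the 42 were at least 1.5-fold lower and called, against 12.5% of all genes, and 6 were at least 2-fold lower, against 5.8%. In 36 genes every teNK library lay below every hNK library, an order that 22.4% of all genes showed. Together the 42 genes took 0.372% to 0.470% of the reads on genes in the hNK libraries and 0.277% to 0.290% in the teNK libraries. This share amounts to scaling by library size alone, without the TMM factors (1.02 to 1.07 in hNK and 0.947 to 0.974 in teNK). That scaling called 36.8% of all genes lower.

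**Figure D1:**
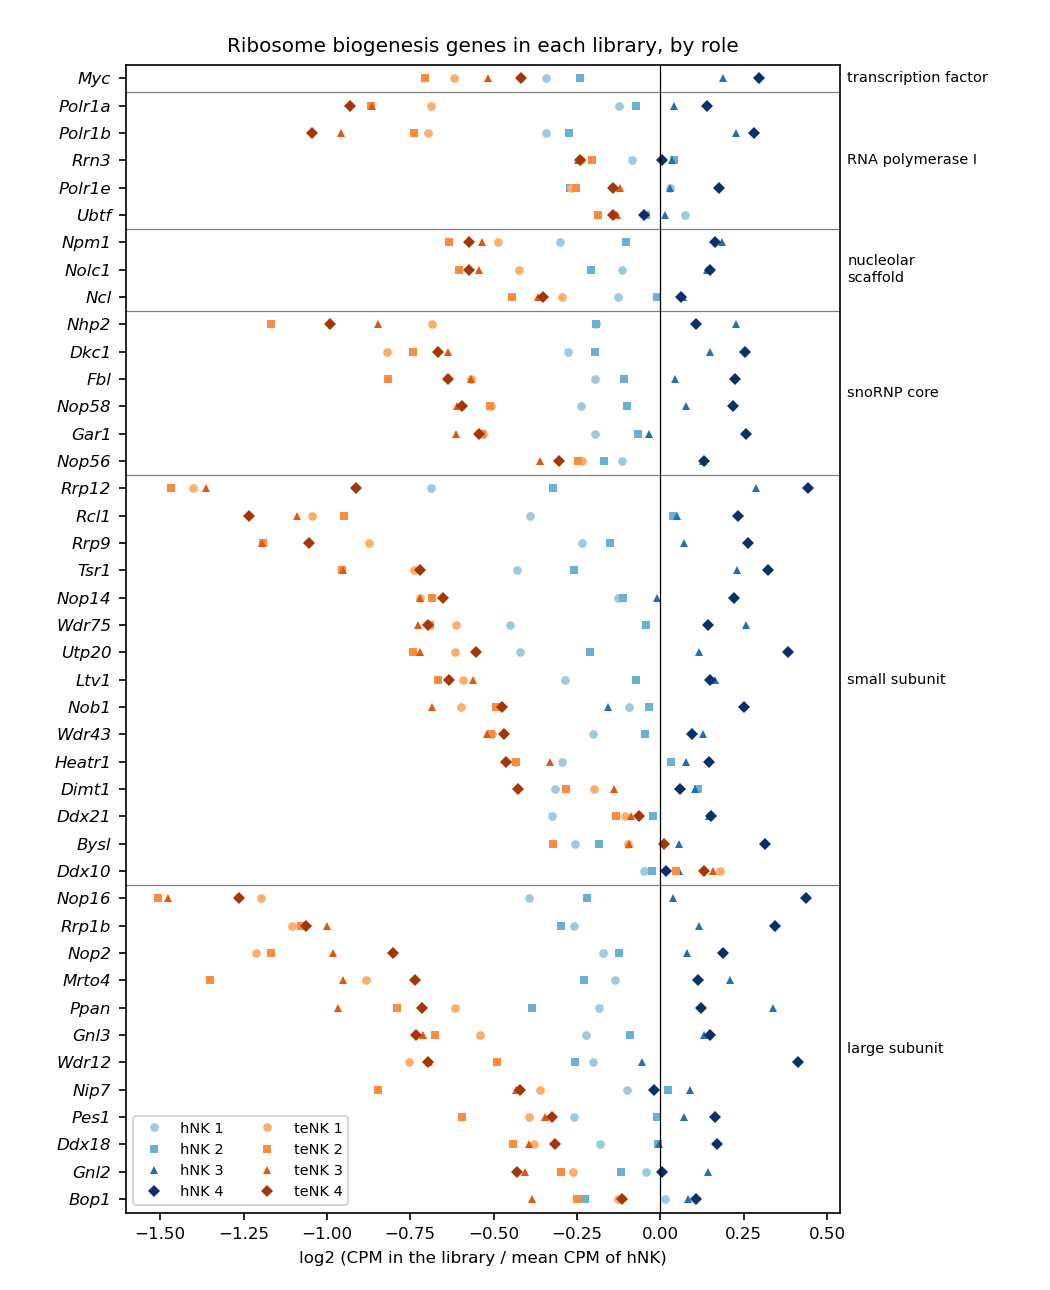
Level of each of the 42 genes in each library, as the log2 ratio of its CPM to the hNK mean, ordered by role and, within a role, by change. The teNK libraries (orange) lie to the left of the hNK libraries (blue) in 36 genes, and hNK 3 and 4 (dark blue) lie to the right of hNK 1 and 2 (light blue) in 37.

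*Myc* (ENSMUSG00000022346, chromosome 15, 61985391 to 61990374 in GRCm38) measured 91.7, 98.4, 132 and 143 CPM in hNK libraries 1 to 4 and 75.8, 71.4, 81.4 and 87.1 CPM in teNK libraries 1 to 4. All teNK values lay below all hNK values, but hNK 1 and teNK 4 were close, and hNK 3 and 4 stood well above hNK 1 and 2. The means were 116 ± 25.1 CPM in hNK and 78.9 ± 6.84 CPM in teNK (SD, n = 4). The log2 fold change was -0.54 ± 0.12 (SE, edgeR adjusted p = 0.000928), or 1.46-fold lower. Without hNK 3 and 4, the *Myc* change shrank to -0.28 and still passed (edgeR adjusted p = 0.0134).

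RNA polymerase I showed unequal changes among its genes. *Polr1a*, which encodes its largest subunit (ENSMUSG00000049553, chromosome 6, 71909053 to 71984935), measured 82.2, 85.0, 92.2 and 98.6 CPM in hNK and 55.6, 49.0, 49.2 and 46.9 CPM in teNK. The groups were far apart relative to their spread, with a log2 fold change of -0.83 ± 0.08 (edgeR adjusted p = 1.17e-07). *Polr1b*, whose product forms the catalytic core with that of *Polr1a*, fell 1.75-fold from 29.0 ± 6.49 to 16.1 ± 1.86 CPM. *Rrn3*, the initiation factor that makes the polymerase competent to start, fell 1.17-fold from 67.9 ± 2.72 to 57.8 ± 0.748 CPM (edgeR adjusted p = 0.00461). *Ubtf*, the factor that binds along ribosomal DNA and recruits the initiation machinery, measured 246, 227, 236 and 226 CPM in hNK and 212, 205, 213 and 212 CPM in teNK. That was 1.11-fold lower, near the threshold (edgeR adjusted p = 0.035), and the *Ubtf* call was lost without hNK 3 and 4 (adjusted p = 0.061), and also when hNK 1, hNK 3 or any single teNK library was left out. *Polr1e*, a peripheral subunit, did not pass at 17.0 ± 2.12 and 14.8 ± 0.77 CPM (edgeR adjusted p = 0.186).

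The ratio of a pair of genes within a library is free of scaling, so the unequal changes were also read from ratios. Among 19 pairs of genes from 4 sets, the groups did not overlap in 10. The RNA polymerase I set includes *Rrn3* and *Ubtf*, which encode factors and not subunits. The share among all pairs of genes was not computed. Of single genes tested, 22.4% had every teNK library below every hNK library, and 24.1% had the opposite order. The log2 ratio of *Polr1a* to *Ubtf* counts was -1.39 ± 0.16 in hNK and -2.07 ± 0.10 in teNK (SD, n = 4; exact permutation test over libraries, two-sided, p = 0.0286, adjusted p = 0.0543 over 19 pairs). The value 0.0286 is the smallest p that 4 against 4 libraries allow. It was reached by 10 pairs, and after adjustment none of the 19 passed. *Polr1a* and *Polr1b* kept a log2 ratio of 1.65 in both groups (SD 0.22 in hNK and 0.11 in teNK).

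Among the nucleolar scaffold and chaperone genes, all 3 fell. *Npm1* (nucleophosmin, ENSMUSG00000057113, chromosome 11, 33152287 to 33163206) measured 451, 517, 632 and 622 CPM in hNK and 396, 358, 383 and 373 CPM in teNK. The teNK values were tightly grouped and all lower, with a log2 fold change of -0.55 ± 0.09 (edgeR adjusted p = 9.23e-05) that shrank to -0.36 without hNK 3 and 4. *Ncl* (nucleolin), an abundant RNA-binding protein of the nucleolus, fell 1.29-fold from 988 ± 61.3 to 767 ± 32.5 CPM. *Nolc1*, a chaperone of snoRNPs, fell 1.44-fold from 86.6 ± 10.7 to 59.8 ± 3.33 CPM.

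All 6 core snoRNP genes among the 42 fell, and the median of their log2 fold changes was -0.59. The methylation-guiding box C/D particle is built on fibrillarin (*Fbl*, the methyltransferase), *Nop56* and *Nop58*. *Fbl* measured 41.7, 44.3, 49.3 and 55.8 CPM in hNK and 32.3, 27.1, 32.2 and 30.7 CPM in teNK, 1.55-fold lower, and *Nop58* fell 1.46-fold from 124 ± 17.1 to 84.3 ± 3.15 CPM. Both groups of libraries were separate for these genes. *Nop56* measured 71.5, 68.8, 84.6 and 84.7 CPM in hNK and 65.8, 65.2, 60.3 and 62.7 CPM in teNK, 1.21-fold lower (edgeR adjusted p = 0.00653). The *Nop56* call was lost without hNK 3 and 4 (log2 fold change -0.15, adjusted p = 0.12). Its log2 ratio to *Nop58* was -0.67 ± 0.10 in hNK and -0.41 ± 0.02 in teNK (exact permutation p = 0.0286, adjusted p = 0.0543). Of the pseudouridylating box H/ACA particle, *Dkc1* (dyskerin, the pseudouridine synthase; chromosome X, 75095854 to 75109777) measured 69.7, 73.7, 93.5 and 101 CPM in hNK and 47.8, 50.4, 54.2 and 53.2 CPM in teNK, 1.62-fold lower. In the same particle, *Nhp2* fell 1.85-fold and *Gar1* 1.45-fold. The remaining core genes, *Snu13* of box C/D and *Nop10* of box H/ACA, are not among the 42 and were named after their values were seen. Neither passed, with log2 fold changes of 0.02 for *Snu13* and -0.13 for *Nop10* (edgeR adjusted p = 0.859 and 0.336).

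Of 15 genes that act mainly in processing of the ribosomal RNA precursor and assembly of the small subunit, 11 fell and 4 did not pass. The largest change was that of *Rrp12*, a factor in assembly and export (ENSMUSG00000035049, chromosome 19, 41862851 to 41896173). It measured 10.9, 14.1, 21.4 and 23.8 CPM in hNK and 6.65, 6.35, 6.83 and 9.32 CPM in teNK (log2 fold change -1.21 ± 0.21, edgeR adjusted p = 0.000147). The hNK libraries varied more for this gene than for any other of the 42, with a coefficient of variation of 34.7%, and the *Rrp12* change shrank to -0.79 without hNK 3 and 4. *Rcl1*, involved in cleavage of the precursor, fell 2.07-fold from 13.8 ± 2.38 to 6.57 ± 0.535 CPM, and *Rrp9*, a protein of the U3 snoRNP, 2.06-fold from 15.1 ± 2.37 to 7.17 ± 0.772 CPM. *Nop14* measured 64.0, 64.6, 69.4 and 81.5 CPM in hNK and 42.5, 43.5, 42.4 and 44.5 CPM in teNK (edgeR adjusted p = 1.66e-06), with almost no spread in teNK. Components of the large early precursor particle, the processome, fell by 1.33-fold (*Heatr1*), 1.41-fold (*Wdr43*), 1.55-fold (*Utp20*) and 1.58-fold (*Wdr75*). Of factors of late, cytoplasmic maturation, *Ltv1* fell 1.51-fold, *Nob1* (the endonuclease of the last cleavage) 1.46-fold and *Tsr1* 1.75-fold. Without hNK 3 and 4, the log2 fold change moved from -0.63 to -0.35 for *Utp20* and from -0.81 to -0.50 for *Tsr1*, and both still passed.

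The 4 small-subunit genes that did not pass were *Ddx10*, *Ddx21*, *Bysl* and *Dimt1*. *Ddx21*, an RNA helicase that also acts at RNA polymerase I and II genes, measured 175, 216, 242 and 244 CPM in hNK and 204, 199.9, 206 and 209.6 CPM in teNK. The teNK values fell inside the hNK range (log2 fold change -0.09 ± 0.09, edgeR adjusted p = 0.389). *Ddx10*, another helicase, was the only gene of the 42 with a higher mean in teNK, 112 ± 4.53 against 103 ± 3.33 CPM in hNK (edgeR adjusted p = 0.0698). *Bysl* measured 15.7 ± 2.89 and 14.4 ± 1.36 CPM, and *Dimt1*, a dimethyltransferase of small-subunit RNA, 13.4 ± 1.77 and 11.2 ± 0.95 CPM. In the annotation, exons of *Dimt1* share 31.9% of their bases with *Kif2a*, those of *Tsr1* 32.3% with *Srr* and those of *Bysl* 9.37% with *Ccnd3*, each on the other strand. The strand setting of the counting was not given in the sources used here, so the values of these 3 genes are uncertain.

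In the large-subunit group, 11 of 12 genes fell, and the median of the 12 log2 fold changes was -0.64. *Nop16* (ENSMUSG00000025869, chromosome 13, 54584185 to 54590090) had the largest fall of the 42. It measured 7.82, 8.81, 10.6 and 13.9 CPM in hNK and 4.48, 3.62, 3.70 and 4.28 CPM in teNK (log2 fold change -1.31 ± 0.18, edgeR adjusted p = 1.7e-05). The lowest hNK library of *Nop16* was still well above the highest teNK library. *Rrp1b* fell 2.05-fold from 42.6 ± 9.24 to 20.4 ± 0.627 CPM, and *Nop2*, a methyltransferase of large-subunit RNA, measured 25.2, 26.0, 30.0 and 32.3 CPM in hNK and 12.2, 12.6, 14.4 and 16.3 CPM in teNK (2.03-fold lower, edgeR adjusted p = 1.26e-06). *Mrto4*, a stalk assembly factor that resembles a ribosomal protein, fell 1.92-fold and *Ppan* 1.66-fold. The nucleolar GTPase genes *Gnl3* (nucleostemin) and *Gnl2* fell 1.57-fold and 1.26-fold, *Nip7* 1.42-fold and the helicase gene *Ddx18* 1.30-fold. In the PeBoW complex, which acts in maturation of the large subunit, *Wdr12* fell 1.54-fold from 24.2 ± 5.47 to 15.4 ± 1.27 CPM and *Pes1* 1.32-fold from 80.1 ± 9.69 to 60.3 ± 4.95 CPM. The remaining subunit, *Bop1*, did not pass at 41.2, 34.9, 43.2 and 43.9 CPM in hNK and 37.3, 34.3, 31.2 and 37.7 CPM in teNK (edgeR adjusted p = 0.0681).

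**Figure D2:**
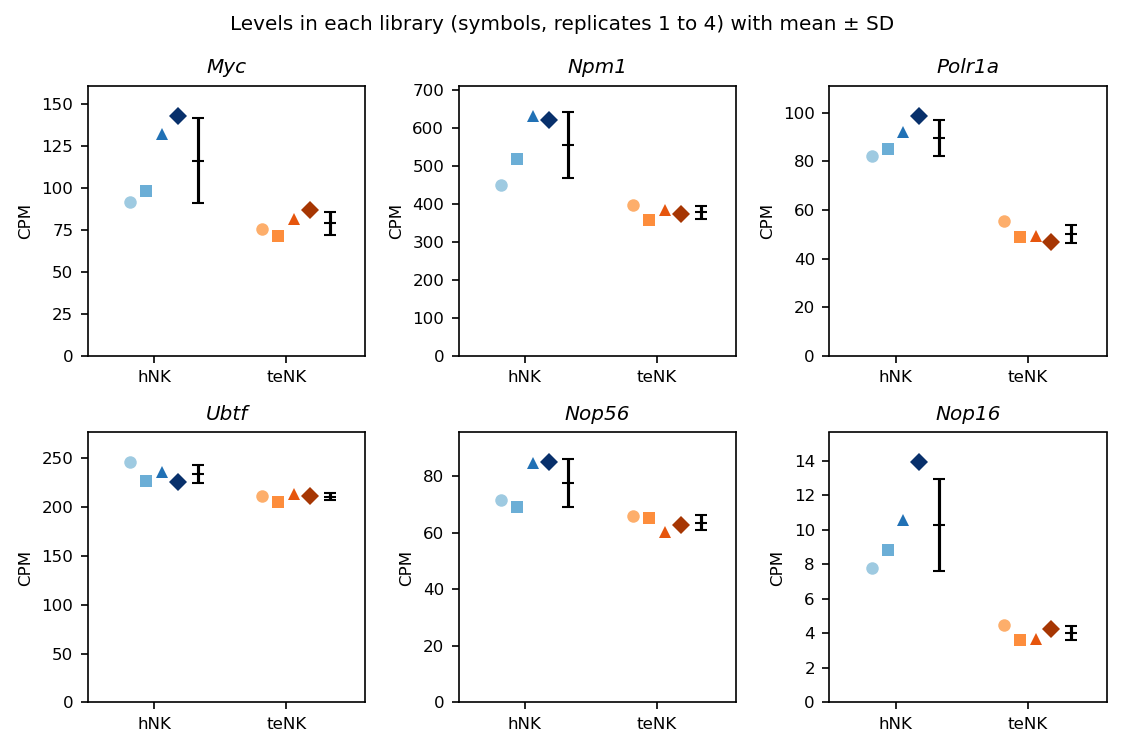
CPM of 6 genes in each library (symbols, replicates 1 to 4 from left to right) with the group mean ± SD beside them, on axes that start at 0. *Polr1a* and *Nop16* show wide gaps between hNK and teNK, *Ubtf* a small one, and *Myc*, *Npm1* and *Nop56* have hNK 1 and 2 nearer to teNK than hNK 3 and 4.

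The hNK libraries differed among themselves in these genes. In 37 of the 42, both hNK 3 and hNK 4 lay above both hNK 1 and hNK 2, and in none was the order the opposite; among all genes tested, 18.3% showed the first order and 18.5% the opposite. The mean of hNK 3 and 4 was 1.23 times that of hNK 1 and 2 at the median of the 42 genes (range 0.978 for *Ubtf* to 1.82 for *Rrp12*), and 0.993 times at the median of all genes. For *Myc* the ratio was 1.45. The same order was seen in 27 of 35 other MYC-induced genes, 31 of 58 other large-subunit genes and 2 of 22 RNA polymerase III genes. It was also seen in 24 of 47 other small-subunit genes and 39 of 82 ribosomal protein genes. Other RNA polymerase I genes showed it in 6 of 20, and MYC partners and competitors in 4 of 16. The hNK 3 and 4 libraries were also the shallowest, at 5800098 and 5202131 reads on genes, and whether depth or another difference between these libraries is involved was not tested. The teNK libraries were close together, with a median coefficient of variation over the 42 genes of 6.10% against 13.5% in hNK. Over all genes tested, the medians were 8.59% in teNK and 12.2% in hNK.

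With hNK 3 and 4 left out, 34 of the 42 genes were called lower and none higher, with a median log2 fold change of -0.43. All 34 were among the 36, and *Nop56* and *Ubtf* were lost. In that fit 22.7% of all genes were called lower. With hNK 1 and 2 left out instead, 37 were called lower and the median was -0.76, where 21.1% of all genes were called lower. Thinning every library to the depth of the shallowest gave 34 lower, where 23.2% of all genes were called lower.

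**Figure D3:**
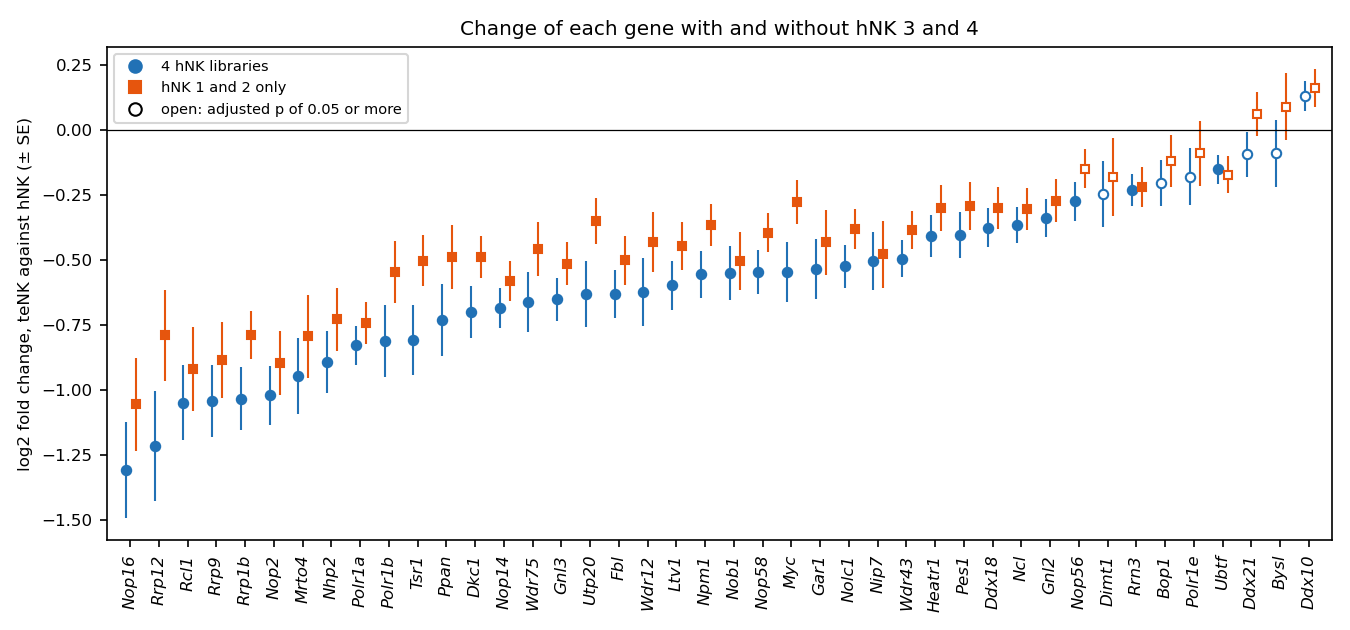
Log2 fold change of teNK against hNK (± SE) for each of the 42 genes, with all 4 hNK libraries (blue circles) and with hNK 1 and 2 only (orange squares); open symbols did not pass. Most changes are smaller without hNK 3 and 4, and 34 genes are called lower in that fit against 36 with all libraries.

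Levels of different genes were compared per kb of the longest principal transcript. *Npm1* was the highest in both groups, at 340.2 ± 53.1 CPM per kb in hNK and 231 ± 9.82 in teNK, followed by *Ncl* (120.4 ± 7.48 and 93.6 ± 3.96) and *Myc* (85.2 ± 18.4 and 57.8 ± 5.01). In hNK, these 3 genes also led when the combined length of all annotated exons was used, but *Myc* (42.8 CPM per kb) barely exceeded *Ddx21* (42.3). In teNK, *Ddx21* stood above *Myc* on that length (205 CPM over 5177 bases against 78.9 CPM over 2717 bases). The order of *Npm1* and *Ncl* is uncertain, because both lengths are long for *Ncl* (8202 and 10188 bases, against 1633 and 2665 for *Npm1*). Before division by length, *Ncl* was higher in hNK (988 against 556 CPM), and shorter transcripts were not tried. *Nop58*, next in order in hNK by the principal transcript at 72.3 ± 9.97 CPM per kb, did not differ from *Myc* beyond their spread. By combined exon length *Nop58* ranked 22 in hNK. *Wdr12* was the lowest on both lengths, at 2.41 ± 0.547 CPM per kb in hNK, with the reservation that its longest principal transcript is 10012 bases.

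RefSeq promoter windows, 250 bases before to 50 bases after a start site in GRCm38.p6, were matched by symbol for 36 of the 42 genes and searched for the E-box CACGTG, which reads the same on both strands. It was present in 7 of the 36 (19.4%), compared with 11.9% of 9074 tested genes with a window and 8.09% of all 27025 genes in the table. The 7 genes were *Nop2*, *Rrn3*, *Pes1*, *Tsr1*, *Wdr43*, *Ltv1* and *Utp20*. All 7 fell in teNK, by a median log2 change of -0.60 (range -1.02 to -0.23), and 24 of the 29 without the motif fell, with a median of -0.55. *Nop2* and *Rrn3* hold it upstream of the start site and bracket that range, so their 250 upstream bases are shown with the E-box in capitals, at chr6:125131633-125131882 and chr16:13780449-13780698, both on the plus strand. The motif starts 60 bases before the start site in *Nop2*, and 215 and 48 bases before it in *Rrn3*.
Nop2: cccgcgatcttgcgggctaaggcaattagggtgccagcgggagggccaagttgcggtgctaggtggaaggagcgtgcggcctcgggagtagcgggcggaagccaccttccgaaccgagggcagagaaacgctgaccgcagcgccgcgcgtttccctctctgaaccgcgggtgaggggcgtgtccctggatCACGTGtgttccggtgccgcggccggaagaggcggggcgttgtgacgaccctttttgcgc
Rrn3: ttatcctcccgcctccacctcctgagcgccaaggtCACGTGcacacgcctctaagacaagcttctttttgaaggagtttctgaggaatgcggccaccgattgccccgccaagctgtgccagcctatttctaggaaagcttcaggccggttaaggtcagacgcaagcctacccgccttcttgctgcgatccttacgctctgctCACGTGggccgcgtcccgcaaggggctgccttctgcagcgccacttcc

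In the other 5 genes the E-box lies just after the start site, at base 3 in *Pes1*, 18 in *Wdr43*, 25 in *Tsr1*, 29 in *Ltv1* and 38 in *Utp20*, counted from the start site as base 1. The motif with 12 bases of flank on each side, or fewer where the window ends, is shown to compare the flanks. The positions are chr11:3963965-3963994 (plus strand) for *Pes1*, chr17:71616220-71616249 (plus) for *Wdr43*, chr11:74898092-74898121 (plus) for *Tsr1*, chr10:13193092-13193121 (minus) for *Ltv1* and chr10:88826765-88826789 (minus) for *Utp20*. A match of these letters is a description and not evidence of binding.
Pes1: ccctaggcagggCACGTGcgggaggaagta
Wdr43: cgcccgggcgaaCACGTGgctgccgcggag
Tsr1: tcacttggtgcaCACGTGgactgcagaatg
Ltv1: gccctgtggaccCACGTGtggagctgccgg
Utp20: cggcactaactaCACGTGaggaaaa

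Further genes of the pathway, from lists that do not contain the 42, were counted in the same fit. These lists too were chosen with earlier results of these data known. Among all genes tested, 25.6% fell and 26.4% rose. Of 58 other large-subunit assembly genes, 44 fell and 3 rose, and the median log2 change was -0.42. *Pwp1* fell 1.66-fold and *Las1l*, a nuclease subunit that cuts between the ribosomal RNAs, 1.43-fold, whereas the helicase gene *Ddx55* rose 1.24-fold and the exonuclease gene *Xrn2* 1.15-fold. Of 47 other small-subunit genes, 30 fell and 3 rose (median -0.30); *Nol6* fell 2.36-fold from 83.7 ± 4.03 to 35.6 ± 1.79 CPM and *Utp4* 1.74-fold, and *Bms1* and *Riok1* rose 1.19-fold and 1.20-fold. Of 82 genes for cytosolic ribosomal proteins, 73 fell and 1 rose (median -0.54). *Rpl12* fell 1.83-fold and *Rpl18* 1.66-fold, and *Rpl22l1* was the gene that rose, 1.53-fold, with 2 rising when teNK 2 was left out. Most rises in these lists depended on scaling: by library size alone, none of the other small-subunit or large-subunit genes rose.

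The lists around transcription were counted beside the 25.6% of all genes called lower and 26.4% called higher. Of 20 other RNA polymerase I genes, which include subunits shared with other polymerases, 7 fell and 4 rose (median -0.07), and 2 rose without hNK 2 or without teNK 3. *Mybbp1a*, a nucleolar MYB-binding protein, fell 1.80-fold and the shared subunit *Polr2e* 1.64-fold, while *Baz2a*, a silencer of ribosomal DNA, rose 1.30-fold and the deacetylase gene *Sirt7* 1.27-fold. Of 22 RNA polymerase III genes, which transcribe transfer RNAs and the small ribosomal RNA made outside the nucleolus, 9 fell and 4 rose (median -0.13). The number that rose was 2 when hNK 2, hNK 3, hNK 4, teNK 1 or teNK 3 was left out, and 1 without teNK 2. Among them *Polr3d* fell 1.68-fold, and *Gtf3c5* and *Bdp1* rose 1.17-fold and 1.12-fold. Scaling by library size alone moved the median of all genes by -0.13 and called 2 of the other RNA polymerase I genes higher. It called 15 RNA polymerase III genes lower and none higher. With that scaling, 36.8% of all genes were called lower, and 40 of the 42.

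Of 16 tested genes for MYC partners and competitors, 6 rose and 3 fell, and the median log2 change was 0.11, where 26.4% of all genes rose and 25.6% fell. *Mxd1*, whose product competes with MYC for MAX and represses its targets, rose 2.03-fold from 139 ± 7.94 to 283 ± 6.59 CPM (edgeR adjusted p = 5.74e-10), and *Mlxip* (MondoA), a glucose-sensing relative, 1.83-fold. *Mga* fell 1.18-fold and *Pcgf6* 1.36-fold. The third gene that fell was *Mycn*, named after its values were seen, which was scarce at 4.28 ± 2.25 CPM in hNK and 0.476 ± 0.447 CPM in teNK. Of 35 other genes that MYC is known to induce, outside ribosome assembly, 24 fell and 2 rose (median -0.44), and 4 rose without hNK 3 and 4. *Slc7a5*, the large neutral amino acid transporter, fell 74.3-fold and *Mthfd2*, a mitochondrial folate enzyme, 19.7-fold; both are also textbook targets of the stress-response factor ATF4. *Ccnd2* rose 1.31-fold and *Tfam* 1.18-fold.

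**Figure D4:**
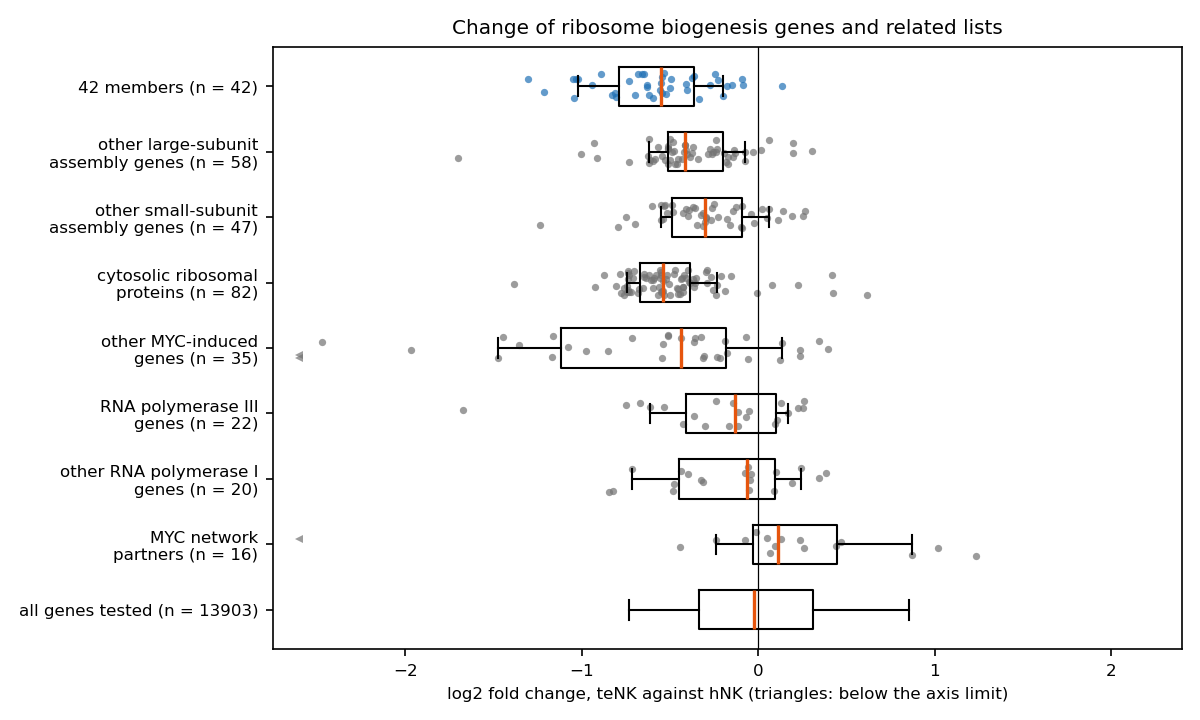
Log2 fold change of teNK against hNK for the 42 genes (blue points), 7 related lists (grey points) and all genes tested; boxes give the median (orange) and quartiles, and whiskers the 10th and 90th percentiles. The medians of the 42 genes (-0.55) and of the ribosomal protein genes (-0.54) are the lowest shown, and that of all genes is -0.02.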

How the data were processed

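The authors deposited 1 file of raw read counts per library, with 54838 Ensembl genes and 5 summary lines. HISAT2 2.1.0, SAMtools and HTSeq were used with GRCm38, per the submitters' processing notes. The kit, TruSeq Stranded mRNA per the labels' protocols, keeps strand; how HTSeq was set for strand, and with which annotation, is not given in the sources used here. Summary lines stayed out of library sizes; reads in no gene made up 32.3% to 41.2% and ambiguous reads 1.52% to 2.07%. The labels describe the teNK libraries, but not the hNK libraries, as run in separate lanes, so lane layout and group cannot be told apart.

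GENCODE M21 (GRCm38) gave symbols. In R 4.3.3 with edgeR 4.0.16, genes were kept with filterByExpr (13903), normalized by TMM and compared between groups by the quasi-likelihood test, with Benjamini-Hochberg adjustment over all genes and a threshold of 0.05. Each standard error is the size of the log2 fold change over the root of its F statistic. Alternatives were other scalings, filters, DESeq2 1.42.0, limma 3.58.1 voom, a replicate block, thinning and leaving out libraries. The members and lists were chosen with earlier results of these data known. All members may be named; from other lists, up to 2 called genes in each direction with the smallest adjusted p and a mean log2 CPM of at least 2 were, except for items not reported here. Pairs of libraries within groups differed by 3.51 to 11.3 chi-square per degree of freedom, so none agreed within sampling noise. The fit was tested on simulated data in which far fewer genes changed than were called here. How the scaling behaves under so broad a change was therefore not tested. The floor of 3 counts is 0.238 to 0.542 CPM in hNK and 0.190 to 0.241 CPM in teNK and covers counting error only.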

Additional observations from a re-analysis of the deposited data

Results flagged for a closer look

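Of 84 checks (42 genes in each group of 4 libraries), 4 found a library whose gap to its nearest neighbour was, as a share of its group's range, above Dixon's 95% critical value; chance flags about 5% of such checks. *Rrp12* in teNK 4 was 9.32 CPM, with the other teNK libraries at 6.35 to 6.83. *Nip7* in teNK 2 was 13.0 CPM, with the others at 17.4 to 18.2. *Gar1* in teNK 3 was 10.3 CPM, with the others at 10.8 to 10.9, a small gap in a tight group. *Dimt1* in hNK 1 was 10.7 CPM, with the others at 13.9 to 14.5. *Rrp12*, *Nip7* and *Gar1* were called lower in all 17 alternatives tried, and *Dimt1* in 2 of them.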

How the results depend on the processing

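Over the 17 alternatives chosen at the outset, 34 to 40 of the 42 genes were called lower, and their median log2 fold change stayed between -0.68 and -0.48. Of all genes tested in each alternative, 13.9% to 36.8% were called lower. Leaving out single libraries gave 0 to 1 gene called higher, the 1 being *Ddx10* without teNK replicate 2. *Ubtf* was called lower in 8 of 17 alternatives (adjusted p = 0.000595 to 0.166). *Bop1* was called in 3, *Ddx21* and *Dimt1* in 2 each, *Polr1e* in 1 and *Bysl* in none; leaving out hNK 1 gained *Ddx21* and *Dimt1*, and leaving out hNK 2 gained *Bop1*. *Rrn3* was lost only by thinning. The sign of *Bysl* turned without hNK replicate 4 (0.016, over a range of -0.17 to 0.016 when single libraries were left out) and without hNK 3 and 4 together (0.091), and that of *Ddx21* turned without hNK 3 and 4 (0.062). None of these passed. Library size alone raised the share of called genes that were lower from 49.3% to 65.4%. The replicate numbers gave no clear pairing of the libraries (correlations of same-numbered deviations from -0.11 to 0.15). Of 4 hNK libraries, 2 were closest to their own number, and so few libraries cannot exclude a pairing. The replicate block called 35 of the 42 genes lower. Leaving out hNK 3 and 4, or hNK 1 and 2, was chosen after seeing the data.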

Other observations

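The 42 genes host 23 annotated snoRNA genes, the guides that their snoRNPs carry, within 8 of them. The 12 snoRNA genes that lie over an annotated exon of the host had no read in any library. Reads there also overlap the host exon and may have been set aside as ambiguous, so the lack of reads does not show that these guides were absent. The 11 in introns only had 889 reads over all 8 libraries. *Snord70* in *Nop58* had 91 reads in hNK and 146 in teNK, and its log2 fold change of 0.03 ± 0.27 did not pass (edgeR adjusted p = 0.929). *Snord110* in *Nop56* had 67 and 132 reads (0.31 ± 0.30, edgeR adjusted p = 0.414), and *Snord53* in *Wdr43* 58 and 62 reads (-0.61 ± 0.40, edgeR adjusted p = 0.215). Their host genes fell, but a difference between guide and host was not tested, and poly(A) selection removes most snoRNA.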
